A study of Mus musculus with 25 samples.

Results

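Lactate can enter oxidation in a heart muscle cell only after it has been turned into pyruvate and the pyruvate has reached the mitochondrial matrix. The 10 genes described here encode those steps in the mouse: the lactate dehydrogenases Ldha, Ldhb and Ldhd, the mitochondrial pyruvate carrier subunits Mpc1 and Mpc2, pyruvate carboxylase Pcx, and the pyruvate dehydrogenase subunits Pdha1, Pdhb, Dlat and Pdhx. They were taken by gene symbol from a table of 56941 genes, by a rule that uses no measured value. All 10 passed the filter on low counts, which kept 17682 genes.

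RNA from 25 hearts was sequenced after removal of ribosomal RNA. The wild-type (WT) groups held 4 hearts without a pump, 6 with saline and 3 with Ang/PE, a pair of neurohormonal agonists used to provoke growth of the heart muscle. The groups labelled MCT1KO held 3 hearts without a pump, 4 with saline and 5 with Ang/PE. MCT1, encoded by Slc16a1, carries lactate and pyruvate across membranes, and the title of the series links lactate handling to hypertrophy. The deleted exons, the cells in which MCT1 was removed, the promoter used, the strain, age and sex of the mice, the doses and the length of infusion are not given in the sources used here.

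As background, lactate dehydrogenase is a tetramer that interconverts lactate and pyruvate with NAD. Ldhb encodes the H subunit, which prevails in heart, and Ldha the M subunit, which prevails in fast skeletal muscle, while Ldhd encodes a mitochondrial enzyme that oxidises D-lactate. Mpc1 and Mpc2 form a heterodimer in the inner mitochondrial membrane that admits pyruvate to the matrix. There the pyruvate dehydrogenase complex turns it into acetyl-CoA: Pdha1 and Pdhb encode the alpha and beta chains of the E1 decarboxylase, Dlat the E2 acetyltransferase core, and Pdhx the E3-binding protein. Pyruvate carboxylase instead adds carbon dioxide to make oxaloacetate, which refills the citric acid cycle and is also used in fat synthesis.

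Libraries held 12216704 to 24880683 counts, and genes of the mitochondrial genome took 8.87% to 18.4% of them. Slc16a1 was not lower in the hearts labelled MCT1KO by any comparison past the threshold: levels are given as counts scaled to a library of 1000000 (CPM). Hearts without a pump had 203 ± 36.8 CPM of it (SD) in the 4 WT mice and 199.8 ± 29.6 in the 3 labelled MCT1KO. With saline it stood at 199 ± 29.9 (WT, n = 6) and 158 ± 26.0 (MCT1KO, n = 4), and with Ang/PE at 214 ± 10.6 (WT, n = 3) and 189.8 ± 21.9 (MCT1KO, n = 5). A count over the whole gene does not test a deletion of part of it, so genotype is given below only as the label. Each heart is labelled as a separate sample, and p-values measure the spread between these hearts. All 7 ventricular cardiomyocyte markers had counts in every group. A saline heart labelled MCT1KO, replicate 4, stood apart: its 5 adipocyte markers summed to 1216 CPM, against 11.4 to 62.0 CPM in the other 24 hearts, and its 3 atrial markers to 3679 CPM, against at most 1136 CPM elsewhere. Results that rest on it are given with and without it. Among the 5 adipocyte markers, Cidea alone was at 10.6 to 18.3 CPM in the other 24 hearts, so low sums are mostly Cidea. Plin1, another of the 5, was at most 0.18 CPM without a pump. It reached 10.3 CPM in WT saline replicate 4, 17.4 CPM in MCT1KO saline replicate 1 and 257 CPM in MCT1KO saline replicate 4. In bulk tissue, fewer cells of a type and less RNA per cell cannot be told apart.

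The start regions of 3 genes are shown because their products stand at the branch between lactate and pyruvate import: the 2 main dehydrogenase subunits, and Mpc1, the member whose level changed. The windows run from 250 bases before to 50 bases after a RefSeq start on GRCm38.p6, which is not the build of the counts, and all 10 genes matched a window there. Capitals mark ACGTG, a form of the core of the hypoxia response element, read on both strands. The form GCGTG was not searched and is not marked, also where a window holds it. For Ldha, RefSeq gives 2 windows, and the one shown, the first, lies on the plus strand at chr7:46845554-46845853. That of Ldhb lies on the minus strand at chr6:142507908-142508207, and that of Mpc1, also the first of 2, on the plus strand at chr17:8283537-8283836.
Ldha: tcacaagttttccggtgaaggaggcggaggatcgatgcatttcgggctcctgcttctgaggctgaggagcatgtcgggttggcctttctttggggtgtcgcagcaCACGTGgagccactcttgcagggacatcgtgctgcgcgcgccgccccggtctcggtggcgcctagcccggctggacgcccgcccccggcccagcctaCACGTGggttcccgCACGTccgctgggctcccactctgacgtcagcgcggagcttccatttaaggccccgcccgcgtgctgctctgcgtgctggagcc
Ldhb: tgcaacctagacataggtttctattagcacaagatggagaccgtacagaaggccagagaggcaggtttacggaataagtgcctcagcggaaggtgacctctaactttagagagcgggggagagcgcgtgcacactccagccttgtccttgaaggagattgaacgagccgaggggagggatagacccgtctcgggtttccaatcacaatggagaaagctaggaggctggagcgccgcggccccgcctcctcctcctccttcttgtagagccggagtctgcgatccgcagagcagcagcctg
Mpc1: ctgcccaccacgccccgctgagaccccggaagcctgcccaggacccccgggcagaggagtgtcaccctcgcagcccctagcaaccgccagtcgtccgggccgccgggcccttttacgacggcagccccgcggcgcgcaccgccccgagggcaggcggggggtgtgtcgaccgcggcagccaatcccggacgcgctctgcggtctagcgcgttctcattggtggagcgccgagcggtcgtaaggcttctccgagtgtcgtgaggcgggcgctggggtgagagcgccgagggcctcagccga
The Ldha window shown holds ACGTG in 3 separate stretches, 2 of which are the palindrome CACGTG and so match on both strands. The second Ldha window, at chr7:46846832-46847131, holds no ACGTG, nor do the window of Ldhb and both windows of Mpc1. Among the other members, a window of Ldhd, Pcx and Pdhb each holds at least 1 match and those of Mpc2, Pdha1, Dlat and Pdhx hold none. Of 32851 such windows genome-wide, 19.6% hold these letters. The motif AAGGTCA, a half-site of the estrogen-related receptors found in 4.72% of windows, was in no window of a member. These are matches of letters, and no factor binding was measured.

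Ldhb was the most abundant of the 10 transcripts per length and Ldha was well below it in every group. Averaged over the 25 hearts, the level per kilobase of the principal transcript was 777 CPM for Ldhb, 344 for Pdha1, 257 for Pdhb, 212 for Ldha, 170.0 for Mpc2, 149 for Mpc1, 86.5 for Dlat, 42.7 for Pdhx, 19.9 for Ldhd and 12.9 for Pcx. Per kilobase of all annotated exons, Ldhb stayed first at 646 CPM and Pdha1 second at 262, but the order below them changed, with Mpc2 at 23.7 falling under Mpc1 at 68.5. The order among the less abundant genes therefore depends on which gene length is used, and lengths come from GENCODE M21 rather than from the annotation of the counts.

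**Figure D1:**
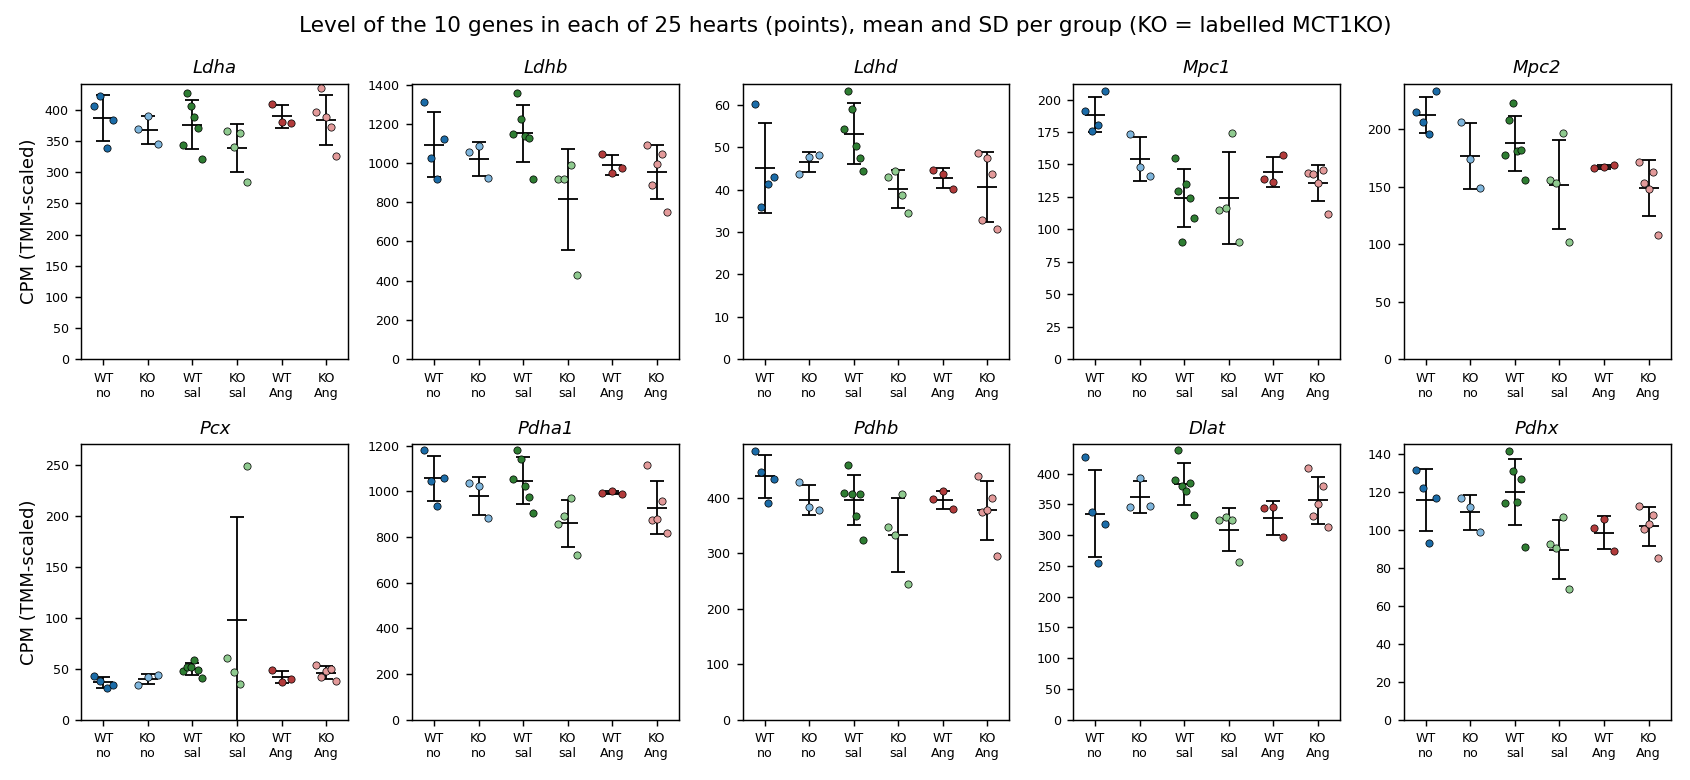
Level of each of the 10 genes in CPM (vertical axis, from 0) in every heart (points), with the mean and SD of each of 6 groups (horizontal axis; no, no pump; sal, saline; Ang, Ang/PE; KO, labelled MCT1KO). Mpc1 is highest in WT hearts without a pump, at 176 to 206 CPM, and 1 saline heart labelled MCT1KO stands apart with Pcx at 249 CPM and Ldhb at 430.5 CPM; the lower SD bar of Pcx there runs past 0 and is not drawn in full.

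The lactate dehydrogenase genes did not change between groups past the threshold in any of the 15 comparisons. Ldha ran from 284 to 435 CPM, the lowest ratio of highest to lowest heart among the 10 genes (1.53), with group means from 339 ± 38.4 CPM (SD, n = 4) in MCT1KO saline hearts to 389.8 ± 17.8 (n = 3) in WT Ang/PE hearts. Neighbouring group means of Ldha differed by less than the larger SD at every step of that order. For Ang/PE against saline, the Ldha difference was 0.05 on the log2 scale in WT (95% interval -0.17 to 0.27) and 0.18 in MCT1KO (-0.03 to 0.39).

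Ldhb levels without a pump were 1309.5, 1026, 917 and 1120.0 CPM in the WT hearts and 1057, 1086 and 921 CPM in the MCT1KO hearts. With saline, the 6 WT hearts ran from 916 to 1358 CPM with a median of 1143, and the MCT1KO hearts were at 921, 919, 988 and 430.5 CPM. With Ang/PE the WT hearts were at 1048, 947 and 972 CPM and the MCT1KO hearts at 1093, 886, 993, 1045 and 749.9 CPM. The groups overlapped throughout, and the value of 430.5 CPM, in the saline heart with adipocyte and atrial markers, lay far below all others. Ldhd, at 30.7 to 63.4 CPM, was highest in WT saline hearts (53.2 ± 7.18 CPM, n = 6) and lowest in MCT1KO saline hearts (40.2 ± 4.55 CPM, n = 4).

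The balance of the H and M subunit genes can be read within a heart as a ratio of counts, which needs no scaling between libraries. The log2 ratio of Ldhb to Ldha was 1.49 ± 0.17 (n = 4) in WT and 1.47 ± 0.05 (n = 3) in MCT1KO hearts without a pump. It was 1.61 ± 0.08 (n = 6) in WT saline hearts and 1.34 ± 0.02 (n = 3) in WT Ang/PE hearts, and every WT Ang/PE heart (1.32 to 1.36) lay below every WT saline heart (1.51 to 1.74) and, but for replicate 2 at 1.28, below the WT hearts without a pump. In MCT1KO hearts the ratio was 1.33, 1.43, 1.44 and 0.60 with saline and 1.03 to 1.49 with Ang/PE, and those groups overlapped. Xist, the RNA of the inactive X chromosome, was above 100 CPM in 3 of 3 WT Ang/PE and 1 of 6 WT saline hearts. That saline heart had the lowest log2 ratio of its group, at 1.51. Without a pump, the WT hearts above 100 CPM were at 1.28 and 1.44 and the others at 1.69 and 1.55. MCT1KO saline replicate 4 and Ang/PE replicate 5, both below that level, were at 0.60 and 1.20, under or within their groups' other hearts. The part of sex in these ratios was not tested. Per kilobase of principal transcript, the ratio corresponded to 3.20 to 4.14 times more Ldhb than Ldha across the group means, and per kilobase of all annotated exons to 4.98 to 6.44 times. The lower end in each case is the MCT1KO saline group, in which replicate 4 was at 2.05 per kilobase of principal transcript and the other 3 hearts at 3.40 to 3.68. These ratios are given as a description without a test.

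Mpc1 was the one member that changed: in WT hearts it fell by 34.3% between no pump and saline. The WT hearts without a pump were at 191, 176, 180.4 and 206 CPM. The 6 WT saline hearts ran from 90.3 to 155 CPM with a median of 127. No saline heart reached the lowest heart without a pump, and group means were 188 ± 13.6 CPM (SD, n = 4) and 124 ± 22.3 CPM (n = 6). In edgeR's quasi-likelihood test the log2 fold change was -0.61 (SE 0.14, 95% interval -0.89 to -0.32), with an adjusted p of 0.0158 after Benjamini-Hochberg adjustment over all 17682 genes. This was 1 of 10 members called, in a comparison where 6.61% of all genes were called, and 10.3% of all genes had groups that did not overlap, so the members' share of calls lies near the background. At an unadjusted p below 0.05 it was also 1 of 10, against 24.3% of all genes. In some other fits of this comparison, given below, Pcx or Ldhd passed beside Mpc1.

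In hearts labelled MCT1KO, Mpc1 was at 174, 148 and 141 CPM without a pump and at 115, 116, 174 and 90.4 CPM with saline. The groups overlapped through the single saline heart at 174 CPM, replicate 3, and the log2 difference of -0.32 did not pass (adjusted p = 0.453). That difference was not shown to differ from the one in WT, since the interaction of genotype with the saline pump was 0.29 for Mpc1 (adjusted p = 0.513). Averaged over both genotypes, Mpc1 fell by 27.3% between no pump and saline (log2 -0.46, SE 0.11, edgeR adjusted p = 0.0465), where 0.803% of all genes were called. At an unadjusted p below 0.05 there were 3 members, Mpc1, Pdhb at -0.20 and Pcx at 0.87, against 18.6% of all genes. Without MCT1KO saline replicate 4, Pdhb was at -0.14 (edgeR unadjusted p = 0.109) and Pcx at 0.35 (0.00398). The Mpc1 call held in 3 of 25 fits that each left out 1 heart (without WT saline replicate 1, MCT1KO saline replicate 3 or MCT1KO Ang/PE replicate 2). It was lost without MCT1KO saline replicate 4, at -0.40 and an adjusted p of 0.0839.

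The fall in WT hearts was called in 23 of 25 fits that left out 1 heart, with log2 changes from -0.68 to -0.53. It narrowly missed the threshold without WT no pump replicate 3 (adjusted p = 0.0565) or replicate 4 (0.0628). Marker sums moved with it in both directions. The 3 atrial markers, with Sln at 0, summed to 1.51 to 1.95 CPM in WT hearts without a pump. In WT saline hearts they summed to 2.04 to 1136 CPM. The 5 adipocyte markers summed to 12.03 to 16.8 and 13.3 to 46.7 CPM in these groups, with Plin1 at 0.05 to 0.16 and 0.12 to 10.3 CPM. Median sums went from 46101 to 59375 CPM for ventricular cardiomyocyte, 687 to 745 for endothelial and 132 to 183 for smooth muscle markers. They went from 302 to 202 CPM for leukocyte, 996 to 861 for fibroblast and 972 to 726 for blood markers. WT saline replicates 1 and 2, whose atrial markers summed to 2.04 and 18.4 CPM and adipocyte markers to 14.9 and 15.2 CPM, had Mpc1 at 155 and 129.8 CPM, both under the lowest heart without a pump. MCT1KO saline replicate 3, with atrial markers at 1.50 CPM and adipocyte markers at 11.4 CPM, had Mpc1 at 174 CPM. The part of other cells in the Mpc1 change was not tested heart by heart. With the atrial and adipocyte scores as covariates, the log2 change of Mpc1 was -0.20 (adjusted p = 0.748), and with offsets for GC content and length it was -0.37 (adjusted p = 0.0853), so the call ended under either. The mitochondrial genome's share of counts moved with it too, at 14.8% to 18.4% in WT hearts without a pump and 8.94% to 14.8% in WT saline hearts, and it was 17.3% in MCT1KO saline replicate 3, where Mpc1 was at 174 CPM. With the genes of that genome removed before scaling, the log2 change of Mpc1 in WT was -0.62 (adjusted p = 0.0138).

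**Figure D2:**
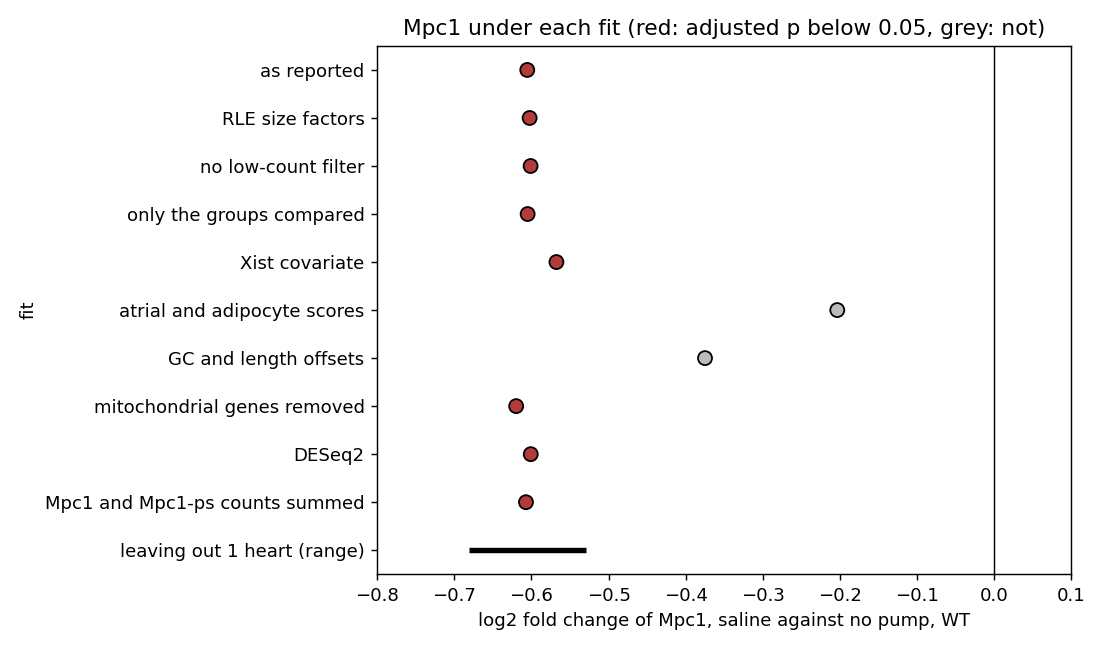
Log2 fold change of Mpc1 between WT saline and WT no pump hearts (horizontal axis) under the fits named on the vertical axis; red points passed an adjusted p of 0.05, grey points did not, and the bar spans the fits that left out 1 heart. All fits shown lie below 0, from -0.68 to -0.20, and its grey points are the fits with marker scores and with GC and length offsets. Fits with the replicate number as a block are not drawn and are given in the last section.

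The labels give no sex, and Xist, the RNA of the inactive X chromosome, was above 100 CPM in 2 of 4 WT hearts without a pump and in 1 of 6 WT saline hearts. The same held for 3 of 3 WT Ang/PE hearts, and for 0 of 3, 3 of 4 and 4 of 5 MCT1KO hearts without a pump, with saline and with Ang/PE, so Xist differs in part with the groups. Among hearts below 100 CPM of Xist, Mpc1 was at 191 to 206 CPM in the 2 without a pump and at 90.3 to 155 CPM in the 5 with saline. Among those above it, Mpc1 was at 176 to 180.4 CPM in 2 hearts without a pump and at 109 CPM in 1 with saline. The part of sex in the change was not tested within these classes, 1 of which holds a single saline heart. With Xist as a covariate the log2 change was -0.57 (adjusted p = 0.0402).

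Counts of Mpc1 can be shared with Mpc1-ps, a near-identical processed copy annotated elsewhere in the genome. Over the 330 bases of its annotated transcript, 329 were identical to Mpc1 and 1 differed. Mpc1-ps held 10.8% to 14.7% of the counts of the pair in each heart, and it fell too in WT saline hearts (log2 -0.62, SE 0.17, adjusted p = 0.0341). With both counts summed, the change in WT was -0.61 (adjusted p = 0.0173), and the call held with the copies pooled.

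Mpc2, the partner subunit, did not pass the threshold in any comparison. It was at 215, 206, 196 and 233 CPM in WT hearts without a pump and at 156 to 223 CPM, median 181, in WT saline hearts, so these groups overlapped and the log2 difference was -0.18. The log2 ratio of Mpc2 to Mpc1 counts was 0.17 ± 0.04 (n = 4) in WT hearts without a pump and 0.61 ± 0.38 (n = 6) in WT saline hearts, with 1.30 in saline replicate 3, where Mpc1 was lowest at 90.3 CPM. In the other 4 groups its mean lay between 0.12 and 0.29. WT saline hearts were thus the group with the widest spread in this ratio, given as a description without a test.

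**Figure D3:**
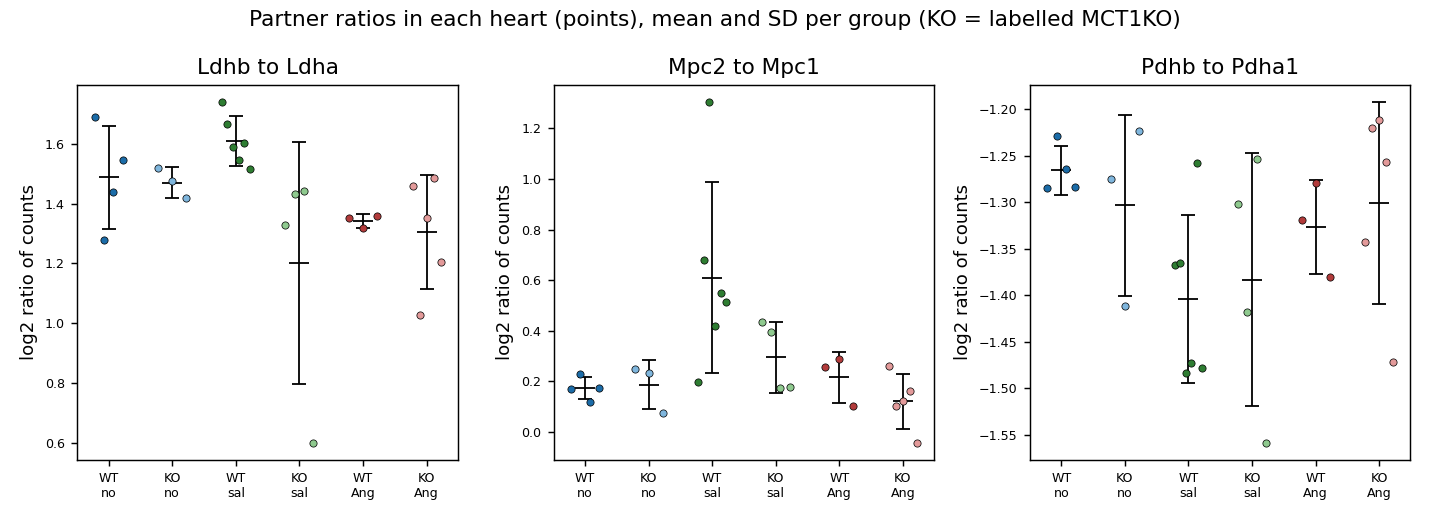
Log2 ratio of counts (vertical axes) of Ldhb to Ldha, Mpc2 to Mpc1 and Pdhb to Pdha1 in every heart (points), with mean and SD in each of 6 groups (horizontal axis; KO, labelled MCT1KO). WT saline hearts reach 1.30 for Mpc2 to Mpc1, and 1 MCT1KO saline heart drops to 0.60 for Ldhb to Ldha.

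Pcx was low in nearly all hearts and very high in a single one. Pcx levels were 43.0, 38.4, 30.8 and 34.5 CPM in WT and 34.0, 42.4 and 43.7 CPM in MCT1KO hearts without a pump. In WT saline hearts they ran from 40.6 to 58.5 CPM with a median of 50.2, and in MCT1KO saline hearts they were 60.4, 47.2, 34.7 and 249 CPM. With Ang/PE they were 48.9, 37.5 and 39.7 CPM in WT and 53.9, 42.0, 47.4, 50.0 and 38.0 CPM in MCT1KO. The value of 249 CPM was 5.25 times the mean of the other 3 hearts of its group, and it sat in the heart whose adipocyte markers summed to 1216 CPM, with Ucp1, the uncoupling protein of brown fat, at 551 CPM.

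The averages for Pcx in that group rest on that heart. MCT1KO saline hearts were 0.97 above WT saline hearts on the log2 scale (SE 0.35, adjusted p = 0.19) and -0.06 without replicate 4. Against MCT1KO hearts without a pump the difference was 1.29 (SE 0.43, adjusted p = 0.242) and 0.25 without it. Ang/PE against saline in MCT1KO gave -1.08 (SE 0.37, adjusted p = 0.0986) and -0.04 without it. With the atrial and adipocyte scores as covariates, the first of these turned to -0.51, the second to -0.39 and the third to 0.57. In WT hearts, Pcx differed by 0.44 between saline and no pump (adjusted p = 0.488). Without MCT1KO saline replicate 4 in the model, the same 0.44 passed (adjusted p = 0.0422, with 9.59% of all genes called in that fit), as it did when only those 2 groups were fitted (adjusted p = 0.0144).

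**Figure D4:**
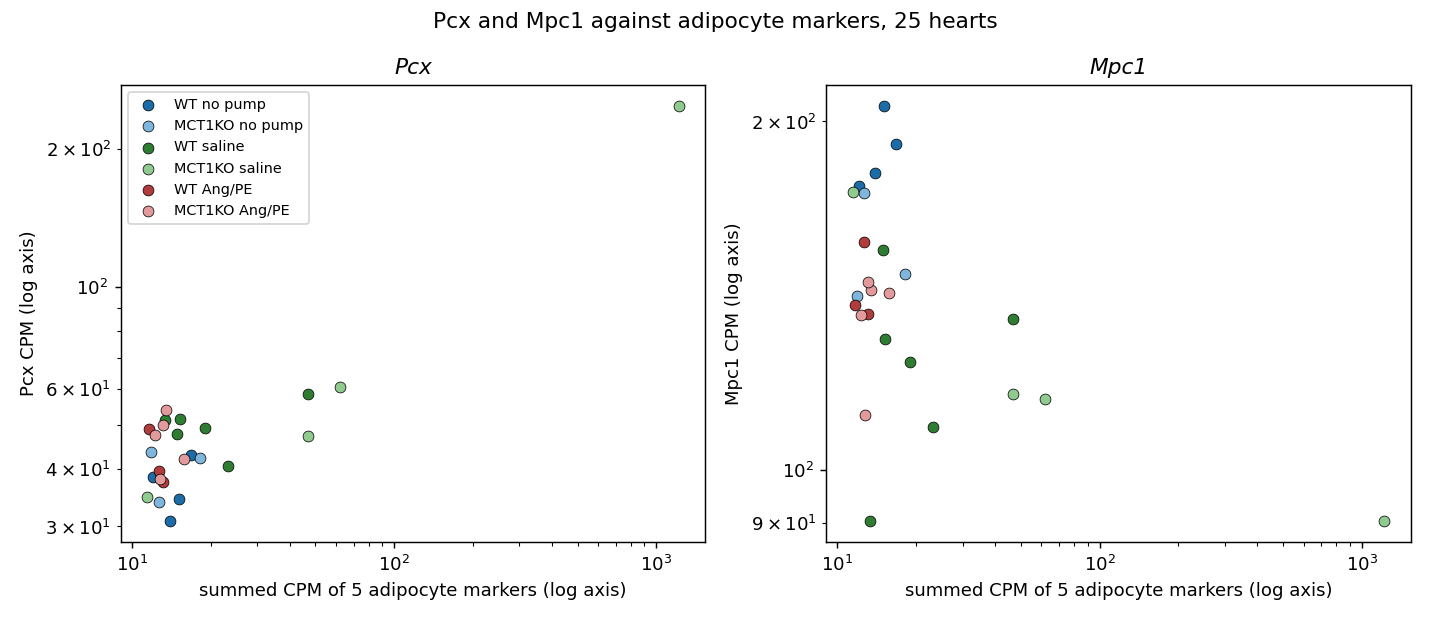
Level of Pcx (left) and Mpc1 (right) in CPM (vertical, log axes) against the summed level of 5 adipocyte markers in CPM (horizontal, log axes) in 25 hearts coloured by group. One MCT1KO saline heart lies at 1216 CPM of markers with Pcx at 249 CPM; the other hearts lie at or under 62.0 CPM of markers.

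The same heart was low for the 9 other members. Relative to the mean of the other 3 MCT1KO saline hearts, it had 0.457 times the Ldhb, 0.608 times the Mpc2, 0.669 times the Mpc1, 0.677 times the Pdhb and 0.713 times the Pdhx. Dlat, Ldha, Pdha1 and Ldhd were at 0.786 to 0.819 times. Its 7 ventricular cardiomyocyte markers summed to 33069 CPM, the lowest of all hearts, against 42066 to 65993 CPM in the others. The part of other cells in these values was not tested.

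The pyruvate dehydrogenase genes were lowest, on average, in saline hearts labelled MCT1KO, but no difference passed the threshold. Pdha1 was at 903 to 1182 CPM, median 1038, in WT saline hearts and at 855, 893, 970.5 and 723 CPM in MCT1KO saline hearts. Pdhb was at 324 to 459 CPM, median 408, in the former and at 347, 334, 407 and 246 CPM in the latter. Both E1 genes overlapped between the genotypes. Dlat, the E2 core gene, ran from 332 to 438 CPM, median 382, in WT saline hearts and was at 325, 329, 325 and 256 CPM in MCT1KO saline hearts. Those did not overlap, which held for 2.88% of all genes in this comparison. Pdhx was at 91.0 to 141 CPM, median 121, and at 92.5, 90.5, 107 and 68.8 CPM, with overlap.

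In this comparison of genotypes under saline, edgeR called 0 of 10 members, and 0.0% of all genes. At an unadjusted p below 0.05 there were 7 of 10 members, against 17% of all genes. The smallest p was that of Pdhx (log2 -0.42, SE 0.12, unadjusted p = 0.00214, adjusted p = 0.149). Ldhb differed by -0.50 (SE 0.17), Ldhd by -0.40 (SE 0.14), Dlat by -0.31 (SE 0.12), Mpc2 by -0.31 (SE 0.14), Pdha1 by -0.28 (SE 0.11) and Pcx by 0.97 (SE 0.35). The median log2 difference over the 10 members was -0.29, against 0.03 over all genes tested. Without MCT1KO saline replicate 4, 3 members had an unadjusted p below 0.05, namely Pdhx at -0.30, Ldhb at -0.28 and Ldhd at -0.33, against 6.89% of all genes, and the median was -0.17. Mpc1 was at 0.00 with all hearts and at 0.13 without that heart. Xist was above 100 CPM in 3 of 4 MCT1KO and 1 of 6 WT saline hearts. With Xist as a covariate 0 of 10 members were called, 8 had an unadjusted p below 0.05, against 16.8% of all genes, and the median was -0.31.

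A list of 8 genes of mitochondrial content, including citrate synthase (Cs) and the channel Vdac1, was measured in the same comparison. None was called, all 8 had an unadjusted p below 0.05, and the median log2 difference was -0.34. Without MCT1KO saline replicate 4, 1 of the 8 had an unadjusted p below 0.05 and the median was -0.21. What share of the members' differences goes with mitochondrial content was not tested.

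Without a pump or with Ang/PE, no member passed the threshold between the genotypes. SEs ran from 0.12 to 0.42 without a pump and from 0.11 to 0.41 with Ang/PE, so the lack of calls does not show equal levels. Without a pump no member had an unadjusted p below 0.05 (12.2% of all genes did) and log2 differences lay between -0.29 and 0.13. Mpc1 had the largest, with MCT1KO hearts at 141 to 174 CPM below WT hearts at 176 to 206 CPM, and such a lack of overlap held for 11.5% of all genes. With Ang/PE, no member had one either (6.92% of all genes), and differences ran from -0.17 to 0.14. As an average over the 3 treatments, Mpc2 was lower by log2 -0.25 (SE 0.09, unadjusted p = 0.0105, adjusted p = 0.377) and Pdha1 by -0.16 (SE 0.07, unadjusted p = 0.0251), where 11.4% of all genes had an unadjusted p below 0.05.

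**Figure D5:**
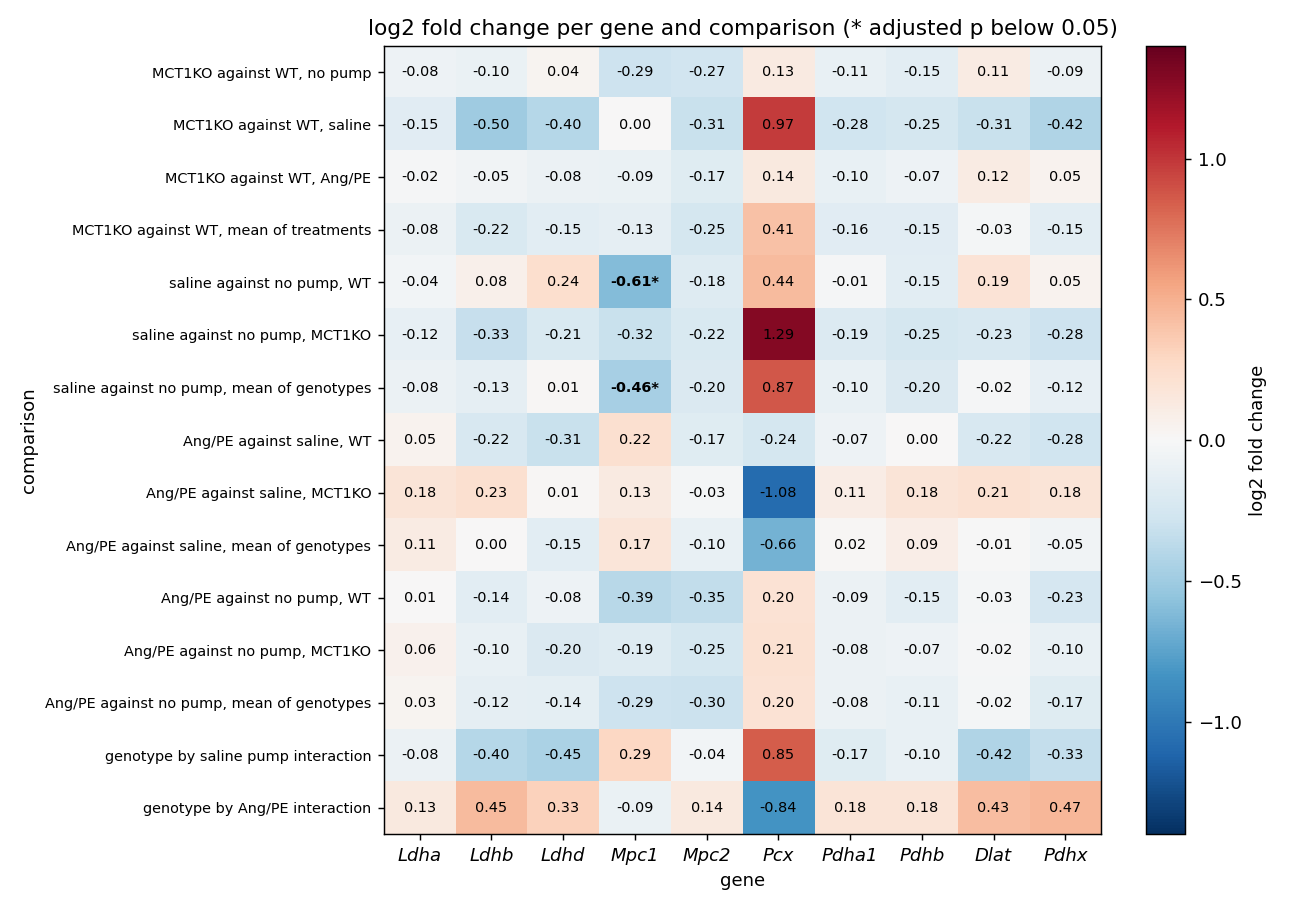
Log2 fold change (colour and printed value) of each of the 10 genes (columns) in each of 15 comparisons (rows); an asterisk and bold type mark an adjusted p below 0.05. The 2 marked cells are Mpc1 at -0.61 and -0.46, both for saline against no pump, and the darkest cells are those of Pcx in comparisons with the MCT1KO saline group.

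Ang/PE, the hypertrophic stimulus, did not change any member past the threshold against saline or against no pump. Against saline in WT hearts, 0 of 10 members and 0.017% of all genes were called, and log2 differences ran from -0.31 for Ldhd to 0.22 for Mpc1. In MCT1KO hearts, 0 of 10 members were called where 4.46% of all genes were, and leaving Pcx aside the differences ran from -0.03 to 0.23. Without MCT1KO saline replicate 4 they ran from -0.18 for Mpc2 to 0.12 for Dlat, and no member had an unadjusted p below 0.05. Over both genotypes, 0 of 10 members were called where 8.12% of all genes were. Only Pcx had an unadjusted p below 0.05 in each of the latter 2, where 20.4% and 24.7% of all genes had one, and Pdhx (log2 -0.28, SE 0.13) in WT, against 19.1%. Without MCT1KO saline replicate 4, Pcx over both genotypes was at -0.14 (edgeR unadjusted p = 0.202). With all hearts, DESeq2 gave the same counts of called members except for Pcx in MCT1KO hearts (log2 -1.07, adjusted p = 0.0342), which rests on replicate 4 of the saline group.

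Against no pump, the carrier genes had the most negative differences of the members in WT hearts under Ang/PE. Mpc1 was at 139, 136 and 157 CPM in WT Ang/PE hearts and Mpc2 at 166, 167 and 169 CPM, all below the WT hearts without a pump, at 176 to 206 and 196 to 233 CPM. Such a lack of overlap held for 10.7% of all genes. Log2 differences were -0.39 (SE 0.17, adjusted p = 0.496) for Mpc1 and -0.35 (SE 0.17, adjusted p = 0.548) for Mpc2. Of all genes 0.0% were called in WT, 0.503% in MCT1KO and 1.55% over both genotypes, and 0 of 10 members in each. At an unadjusted p below 0.05 there were 2, 0 and 2 members, Mpc1 and Mpc2 in both cases, where 9.02%, 13.1% and 15.9% of all genes had one. The comparisons against saline and against no pump share the Ang/PE hearts, so their values are not independent.

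Saline against no pump in MCT1KO hearts gave 0 of 10 members called and 0.00566% of all genes. Only Pcx had an unadjusted p below 0.05 there, against 12.1% of all genes. Dlat was at 346, 392 and 347 CPM without a pump and at 256 to 329 CPM with saline, without overlap (8.6% of all genes), at a log2 difference of -0.23 (adjusted p = 0.517). Whether a treatment acted differently in the 2 genotypes was tested by interaction terms. For the saline pump, 0 of 10 members and 0.00566% of all genes passed, with Dlat at -0.42 (unadjusted p = 0.0265) and Ldhd at -0.45 (0.0451). Without MCT1KO saline replicate 4 these were -0.34 (0.0667) and -0.37 (0.0995), and Mpc1 alone was below 0.05, at 0.42 (unadjusted p = 0.0485, adjusted p = 0.315), against 15.6% of all genes. For Ang/PE, 0 of 10 and 0.0% passed, with Dlat at 0.43 (0.0225) and Pdhx at 0.47 (0.0181). Without that heart these were 0.34 (0.0622) and 0.34 (0.0545), and 0 members were below 0.05, against 9.56% of all genes. With all hearts, at most 2 members had an unadjusted p below 0.05 in either, where 17.2% and 13.5% of all genes did.

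Across the 25 hearts, the levels of most members ran together, and those of Mpc1 and Pcx followed them less closely. Correlations are given as a description over hearts that share groups and scaling. Pearson's r of log2 CPM was 0.893 between Ldhb and Pdhx, 0.887 between Pdha1 and Pdhx and 0.885 between Pdha1 and Pdhb, and each stayed above 0.8 without MCT1KO saline replicate 4. For the carrier pair Mpc1 and Mpc2 it was 0.591, and 0.473 without that heart, while Mpc2 with Pdhb reached 0.871. Mpc1 and Dlat gave 0.081. Pcx was negative with all 9 other members, from -0.624 with Ldhb to -0.063 with Ldhd. Once MCT1KO saline replicate 4 was left out, it turned positive with Ldha, Ldhb (0.343), Ldhd (0.485), Pdha1, Dlat (0.592) and Pdhx. It stayed negative with Mpc1 (-0.562), Mpc2 and Pdhb.

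The 3 genes most like each member were found by the same r over all 25 hearts, among tested genes with a symbol and a mean log2 CPM above 3. For Ldhb they were Atp5g3 (0.969), Slc25a11 (0.966) and Ndufa9 (0.963), a subunit of ATP synthase, the oxoglutarate carrier and a complex I subunit. For Mpc2 they were Uqcr11 (0.964), Cox7a1 (0.963) and Ndufb2 (0.960), all of the respiratory chain. Ndufs1 (0.961) and Sdhb (0.946) were among the 3 genes most like Pdha1. Pdhb was most like Ndufa9 (0.945), Isca1 (0.937) and Timm23 (0.932), and Pdhx like Mrpl28 (0.947), D10Jhu81e (0.943) and Cyc1 (0.942). Dlat was most like Dlst (0.962), the E2 core of the oxoglutarate dehydrogenase complex, then Cs (0.949) and Pgm1 (0.942).

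The gene most like Ldha was Pgk1 (0.842), a glycolytic kinase, before Klhdc2 (0.838) and Coa3 (0.822). Ldhd was most like Aldh4a1 (0.928), Tmem143 (0.926) and Ivd (0.909), Aldh4a1 and Ivd being matrix enzymes of amino acid breakdown. Mpc1 was most like its copy Mpc1-ps (0.955), then Tmem126a (0.929) and Mrpl42 (0.920). Pcx was most like Gpd1 (0.955), Gpat4 (0.946) and Gpd2 (0.944), genes of glycerol phosphate and glycerolipid metabolism, and without MCT1KO saline replicate 4 all 3 gave way to Gpc1 (0.851), Mfhas1 (0.844) and Myo18a (0.832).

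Genes around these steps were followed as fixed lists. Of 7 genes for the E3 subunit and for lipoylation, the attachment of lipoic acid to the E2 core, 2 fell in WT saline hearts against no pump, where 6.61% of all genes were called. Dld, the E3 dehydrogenase that reoxidises the lipoyl group of Dlat, went from 384 ± 23.4 CPM (n = 4) to 286 ± 35.7 CPM (n = 6), at log2 -0.43 (SE 0.13, edgeR adjusted p = 0.0489). Lipt1, a lipoyl transferase, was low at 7.61 ± 1.23 and 5.50 ± 0.47 CPM (log2 -0.47, SE 0.13, adjusted p = 0.0349). Leaving out 1 heart at a time kept the call for Dld in 9 of 25 fits and for Lipt1 in 19 of 25, and both calls ended with marker scores, Xist or GC and length offsets in the model. Among the 7 pyruvate dehydrogenase kinases and phosphatases, which switch Pdha1 protein off and on, none was called in any comparison. Pdk4, the kinase gene that responds to fasting and fat supply, varied widely within groups, from 376 to 1681 CPM in the 3 WT Ang/PE hearts alone.

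Of 6 plasma membrane lactate and pyruvate carriers and their chaperones, 5 were tested and none was called, nor were the 2 tested of 3 lactate dehydrogenase relatives. Slc16a3, the export carrier MCT4, was at 1.18 to 4.61 CPM over all hearts. Of 9 genes for other pyruvate reactions, 8 were tested. Gpt, the alanine aminotransferase that exchanges pyruvate with alanine, was lower with Ang/PE than with saline over both genotypes (log2 -0.45, SE 0.13, adjusted p = 0.0335), a call that held in 19 of 25 fits that left out 1 heart and ended with marker scores (adjusted p = 0.545) or Xist (0.0793). Pck1, which draws on the oxaloacetate that Pcx makes, was higher with saline than with no pump over both genotypes (adjusted p = 0.0397) and lower with Ang/PE than with saline in MCT1KO hearts (adjusted p = 0.0116) and over both genotypes (adjusted p = 0.0075). Its level ran from 1.50 to 655 CPM among the 4 MCT1KO saline hearts, and was at most 1.25 CPM without a pump or with Ang/PE. Without MCT1KO saline replicate 4 these 3 calls stood at adjusted p values of 0.0484, 0.0512 and 0.00776, and the first held in 8 of 25 fits that left out 1 heart. With the marker scores all 3 ended, at 0.9997, 0.558 and 0.411.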

How the data were processed

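Per the submitters' processing notes, the tools named are cutadapt 1.16, STAR 2.7.9a, featureCounts 1.6.3 and DESeq2 1.42.1, and the builds GRCm39 and mm39. The annotation release and the strand setting of the counting are not given in the sources used here. The authors deposited read counts per gene as whole numbers, without normalization, for 25 libraries of 56941 genes, of which 51948 had a symbol; genes without one held 0.778% of the counts. Libraries were grouped by the genotype, treatment and replicate number in their titles. The lowest chi-square per degree of freedom between replicates was 3.33, so none was treated as a copy.

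The 10 members, the lists and the tests were chosen with earlier results of these data known. Named genes are the 10 members in each of 15 comparisons, Slc16a1, the 3 genes most like each member, and called genes of 6 pathway lists. Of the genes most like a member, 1 is not reported here. Low-count genes were removed by group with filterByExpr in edgeR 4.0.16 (R 4.3.3), which left 17682 genes. TMM scaling and 1 robust quasi-likelihood model of 6 groups with 19 residual degrees of freedom followed (common biological coefficient of variation 0.196). Tests were two-sided, adjusted by Benjamini-Hochberg within each comparison over all genes, with a threshold of 0.05. SEs were derived from the F statistic. CPM are counts scaled by TMM library size. The interval and the model cover the spread between hearts of unequal depth (12216704 to 24880683 counts). The script was tested on simulated data.

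Alternatives were the replicate number as a block, RLE size factors, a fit of the compared groups alone, no low-count filter, Xist, or atrial and adipocyte scores as covariates, GC and length offsets (mgcv 1.9.3) with and without the block, mitochondrial genes removed, DESeq2 1.42.0, and leaving out each heart. Summing Mpc1 and Mpc1-ps was chosen after seeing the data. GENCODE M21 (GRCm38) gave names, GC content and lengths (97.1% of tested genes). Promoter windows are from RefSeq (GRCm38.p6). No coordinates of the counts are given.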

Additional observations from a re-analysis of the deposited data

Results flagged for a closer look

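Values far from the rest of their group were sought in 52 sets of 4 to 6 hearts by the gap to the nearest heart relative to the range, which by chance marks about 1 in 20 sets, and 4 were found. Ldhb in MCT1KO saline replicate 4 was low at 8.75 log2 CPM, Dlat in the same heart was low at 8.003 log2 CPM, and the log2 ratio of Ldhb to Ldha there was 0.60. These 3 values come from the heart with 1216 CPM of adipocyte markers and 3679 CPM of atrial markers, and their part in the values was not tested. Mpc1 in MCT1KO Ang/PE replicate 5 was low at 6.80 log2 CPM. That heart had 12.7 CPM of adipocyte markers, nearly all of it Cidea, and 2.58 CPM of atrial markers. With MCT1KO saline replicate 4 left out, it was the lowest heart for Ldhb, Ldhd, Mpc2, Pdha1, Pdhb and Pdhx. It was not the lowest for Ldha, Mpc1, Pcx or Dlat. Its ventricular cardiomyocyte markers summed to 46311 CPM, the lowest of its group, and its Xist was at 0.30 CPM. Their part in the Mpc1 value was not tested.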

How the results depend on the processing

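Of the 15 counts of called members, 9 stayed the same under every alternative run. For saline against no pump in WT, 1 member was called, and 2 when only those groups were fitted (Mpc1 and Pcx), 0 with atrial and adipocyte scores, 0 with GC and length offsets, and 0 to 2 when 1 heart was left out. It was 0 without WT no pump replicate 3 or 4, and 2 without WT no pump replicate 1 (Mpc1 and Ldhd) or MCT1KO saline replicate 4 (Mpc1 and Pcx). Over both genotypes it was 1, then 0 without a low-count filter, with only the groups compared, with scores or with GC and length offsets, 2 with DESeq2 (Mpc1 and Pcx), and 0 to 2 leaving out hearts. For saline against no pump in MCT1KO the range was 0 to 1, the 1 being Pcx without MCT1KO saline replicate 3. For Ang/PE against saline in MCT1KO, DESeq2 called 1 (Pcx) and leaving out hearts gave 0 to 1, the 1 being Pcx without MCT1KO saline replicate 2 or 3. Over both genotypes the range was 0 to 2, Mpc1 and Pcx without MCT1KO saline replicate 3. For MCT1KO against WT under saline it was 0 to 1, Pdhx without that same heart.

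The replicate number as a block called 1 member for MCT1KO against WT under saline (Pdhx), and 2 with GC and length offsets added (Pdhx and Ldhd). It called 0 for saline against no pump in WT, where Mpc1 was at -0.53 (adjusted p = 0.0615), and 0 over both genotypes, alone or with offsets. The numbers were not taken to pair hearts: over 52 same-numbered pairs the mean correlation of deviations was 0.0128, and in 1 of 15 pairs of groups every one was above 0.1.

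With atrial and adipocyte scores, log2 differences changed sign for Mpc2 (0.0186) and Pcx (-0.51) in MCT1KO against WT under saline, Pcx in saline against no pump in MCT1KO (-0.39) and over both genotypes (-0.0174), Pdhb in the latter (0.0435), and Pcx in Ang/PE against saline in MCT1KO (0.57) and over both genotypes (0.20). Leaving out hearts, Pcx in MCT1KO against WT under saline ranged from -0.0578 to 1.26, the lowest without MCT1KO saline replicate 4. Fitting only the groups compared was not run for the mean over treatments.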
